A study of Drosophila melanogaster with 2 samples.

Results

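The genes for the proteins of the cytosolic ribosome were examined for occupancy by the nuclear receptor Hr96 in Drosophila melanogaster. They were taken as the protein-coding genes of the Ensembl annotation of the dm6 build whose symbol starts with RpL or RpS followed by a letter or a digit, which leaves out the mitochondrial ribosomal protein genes. The rule gave 92 genes of the 13945 protein-coding genes on the 6 main chromosome arms. By symbol alone, 54 (RpL) were assigned to the large subunit and 38 (RpS) to the small subunit. The rule also takes in symbols ending in -like, some of which are related to assembly factors, as given below. The data were chromatin immunoprecipitations followed by sequencing from whole adult females of the strain Hr96-GFP, a transgenic line that stably makes Hr96 with an enhanced green fluorescent protein at its C terminus. An antibody against the tag pulled down the fusion, and the flies' age was recorded as unknown. There were 2 biological replicates, numbered 1 and 3, and they formed 1 group. Both carried the fusion, so signal unrelated to Hr96 and binding of Hr96 cannot be told apart. Whole flies mix all tissues, so a peak does not say in which cells the protein was bound. A gene is called bound below where the summit of a peak of the final list lay within 500 bp of one of its annotated transcript starts. That list holds the 3607 peaks kept by the irreproducible discovery rate (IDR), a measure of agreement between replicates, and it equals the 3607 strongest peaks of the list called on both replicates together. Each replicate and the pool had a list of 30000 peaks and background regions, and read totals were not given, so the depth behind each peak is unknown.

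Ribosomes make all cellular proteins, and their subunits are assembled in the nucleolus from ribosomal RNA and proteins needed in near equal amounts. In flies, loss of 1 copy of many ribosomal protein genes delays growth, the Minute phenotype. Ribosomal protein genes are among the most highly transcribed genes of a cell, and in flies many start at a polypyrimidine initiator (TCT) in place of the usual initiator. The DNA replication-related element (DRE), bound by the factor Dref, and the motif of the factor M1BP are other elements of fly housekeeping promoters. Hr96 itself is best known for regulating genes of lipid and sterol handling and of detoxification. The background stated here is general knowledge and was not tested in these data.

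The promoters of the 4 ribosomal protein genes with the strongest peaks are printed first, because the initiator words and their distance from the start can be read on them. Each stretch has 90 bases of the coding strand, read from 5′ to 3′ from the RefSeq copy of dm6, with 60 bases before the transcript start nearest to the summit and the start itself as base 61. Capitals mark the words of the initiator within 10 bases of the start, of the DRE, of the M1BP motif and of the TATA box. The stretches lie at chr3R:30046132-30046221 on the minus strand for RpL32, chr3R:25247485-25247574 on the minus strand for RpS27, chrX:9554563-9554652 on the plus strand for RpS28b and chr3R:9401197-9401286 on the minus strand for RpL34b.
RpL32: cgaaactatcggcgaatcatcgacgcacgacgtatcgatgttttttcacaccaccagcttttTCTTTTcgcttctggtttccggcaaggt
RpS27: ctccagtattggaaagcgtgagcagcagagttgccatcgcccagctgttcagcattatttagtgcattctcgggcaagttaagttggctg
RpS28b: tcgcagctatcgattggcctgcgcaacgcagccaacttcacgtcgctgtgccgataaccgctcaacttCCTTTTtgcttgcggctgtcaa
RpL34b: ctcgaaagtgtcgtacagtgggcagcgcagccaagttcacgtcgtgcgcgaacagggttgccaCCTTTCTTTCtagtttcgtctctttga

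Initiator words stood just after the start in RpL32, RpS28b and RpL34b and were not found within 10 bases of the start in RpS27. The next 4 stretches belong to unbound genes of paralogue families, taken in the order of their symbols, with the 5′ end of the gene as the start. They lie at chr3R:15037306-15037395 on the plus strand for RpL10Aa, chr3R:11431553-11431642 on the minus strand for RpL24-like, chr2L:10200944-10201033 on the plus strand for RpL7 and chr2L:12056266-12056355 on the plus strand for RpL7-like.
RpL10Aa: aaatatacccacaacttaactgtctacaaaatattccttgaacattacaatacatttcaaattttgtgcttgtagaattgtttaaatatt
RpL24-like: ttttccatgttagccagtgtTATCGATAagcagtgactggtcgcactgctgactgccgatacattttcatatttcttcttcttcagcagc
RpL7: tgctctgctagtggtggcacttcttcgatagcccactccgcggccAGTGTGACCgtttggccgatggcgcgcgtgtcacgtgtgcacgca
RpL7-like: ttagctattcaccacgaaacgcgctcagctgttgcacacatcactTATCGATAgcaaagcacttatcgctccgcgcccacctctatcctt

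None of these 4 stretches had an initiator word at the start, RpL24-like and RpL7-like had a DRE word, and RpL7 had the M1BP word on the opposite strand. The last stretches are 2 pairs of paralogues in which 1 copy was bound, chosen after their values were seen, at chrX:17148235-17148324 on the minus strand for RpS5a, chr3R:14901534-14901623 on the minus strand for RpS5b, chrX:16637834-16637923 on the plus strand for RpS19a and chr3R:23933501-23933590 on the minus strand for RpS19b.
RpS5a: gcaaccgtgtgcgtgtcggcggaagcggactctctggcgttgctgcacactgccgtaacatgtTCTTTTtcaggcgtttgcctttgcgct
RpS5b: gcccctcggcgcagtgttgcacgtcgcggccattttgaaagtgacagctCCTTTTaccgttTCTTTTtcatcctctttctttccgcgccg
RpS19a: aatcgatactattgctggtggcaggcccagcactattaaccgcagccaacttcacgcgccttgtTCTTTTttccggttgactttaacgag
RpS19b: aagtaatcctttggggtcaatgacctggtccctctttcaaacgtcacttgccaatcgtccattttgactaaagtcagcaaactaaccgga

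The bound copy RpS5a and its unbound paralogue RpS5b both had initiator words around the start, whereas of RpS19a and RpS19b only the bound RpS19a had one.

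Hr96-eGFP peaks lay at the promoters of most ribosomal protein genes of both subunits. Of the 92 genes, 62 were bound, which is 67.4% (exact Clopper-Pearson 95% interval 56.8 to 76.8, counting error only), and 2526 of all 13945 protein-coding genes were bound, a background of 18.1%. In the large subunit 39 of 54 genes were bound (72.2%, 58.4 to 83.5), and in the small subunit 23 of 38 (60.5%, 43.4 to 76.0). The intervals of the subunits overlap over most of their width, and no difference between the subunits could be made out. Among the mitochondrial ribosomal protein genes 21 of 73 were bound (28.8%, 18.8 to 40.6), so the share was lower for the ribosome of the mitochondrion than for that of the cytosol, with intervals that do not overlap.

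The counts were alike in each replicate taken alone. With the 3607 strongest peaks of replicate 1, 65 of the 92 genes were bound, against a background of 18.6% of all genes. With the 3607 strongest peaks of replicate 3, 61 were bound, against 18.4%. The count was 41 of 54 large subunit genes and 24 of 38 small subunit genes in replicate 1, and 38 and 23 in replicate 3. In both replicates at once, 54 of the 92 genes were bound (58.7%), against 1774 of all genes (12.7%). In the full lists, which go down to background, 71 genes had a summit in replicate 1 and 75 in replicate 3, where 39.0% and 44.2% of all genes had one.

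The ribosomal protein genes also had strong peaks within the final list. The signal value, the strength that the authors' peak caller gave each peak over the control, had a median of 260.4 over the 62 genes (quartiles 146.8 and 362.4, range 61.4 to 806.7), and a median of 126.2 over all 2526 bound genes. By rank in the final list, 34 of the 62 genes (54.8%) were within the first 500 peaks, against 500 of the 2526 bound genes (19.8%). Within the first 100 were 5 of the 62 (8.06%, 2.67 to 17.8), an interval that includes the 3.92% of all bound genes (99 of 2526). The median signal was 258.7 over 39 large subunit genes and 262.0 over 23 small subunit genes. Small subunit genes had more of the weak peaks, with 18 of 23 (78.3%, 56.3 to 92.5) within the first 2000 ranks against 38 of 39 large subunit genes (97.4%, 86.5 to 99.9), and these intervals overlap. Of all bound genes, 1719 of 2526 (68.1%) were within the first 2000 ranks. With the stronger 1803 peaks alone, 36 of 54 large and 17 of 38 small subunit genes were bound, against 11.3% of all genes. Bound mitochondrial ribosomal protein genes had a median of 117.5, below the lower quartile of the cytosolic genes.

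RpL32, a large subunit gene often used as a reference in fly expression assays, had the strongest peak of all members, with a signal of 806.7 and rank 39 of 3607. Its peak spanned chr3R:30046095-30046503 and ranked 28 in replicate 1 (signal 637.6) and 101 in replicate 3 (signal 175.2). RpS27, a zinc-binding protein of the small subunit, followed at rank 50 with a signal of 707.5, and ranked 37 in replicate 1 and 167 in replicate 3. Both replicates placed these genes near the top of their lists, and since signals of different lists were not put on 1 scale, replicates are compared by rank. RpS28b had a signal of 629.8 (rank 65, ranks 54 and 103 in replicates 1 and 3), and RpL34b a signal of 555.7 (rank 83, ranks 75 and 164). RpL14 had a signal of 545.8 (rank 90, ranks 63 and 272). All 5 genes ranked higher in replicate 1 than in replicate 3.

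Genes next in strength lay close together. RpL28 had a signal of 490.7 at rank 120, and RpL41, which encodes the smallest ribosomal protein, had 475.3 at rank 131. RpL13 had 454.3 at rank 140, and RpS20 had 422.2 at rank 166. In replicate 1 these 4 genes ranked 126 (RpL28), 117 (RpL41), 132 (RpL13) and 149 (RpS20), and in replicate 3 they ranked 149 (RpL28), 220 (RpL41), 241 (RpL13) and 271 (RpS20). RpL28 and RpL41 changed places between the 2 replicates.

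Other members with known special roles were spread over the list. The stalk proteins of the large subunit, which recruit translation factors, had signals of 337.2 for RpLP0, 258.7 for RpLP1 and 136.4 for RpLP2. RpS6, a target of the S6 kinase of nutrient signalling, had 216.4 at rank 621. RpL3, a protein near the peptidyl transferase centre, had 205.9 at rank 678, and RpL10, which joins the subunit late in assembly, had 111.1 at rank 1623. The weakest peaks that still made the list were those of RpL15 (63.3, rank 3359) and RpS3 (61.4, rank 3493). Just outside it were RpS5b at rank 3830 of the pooled list and RpL5 at 3845.

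**Figure D1:**
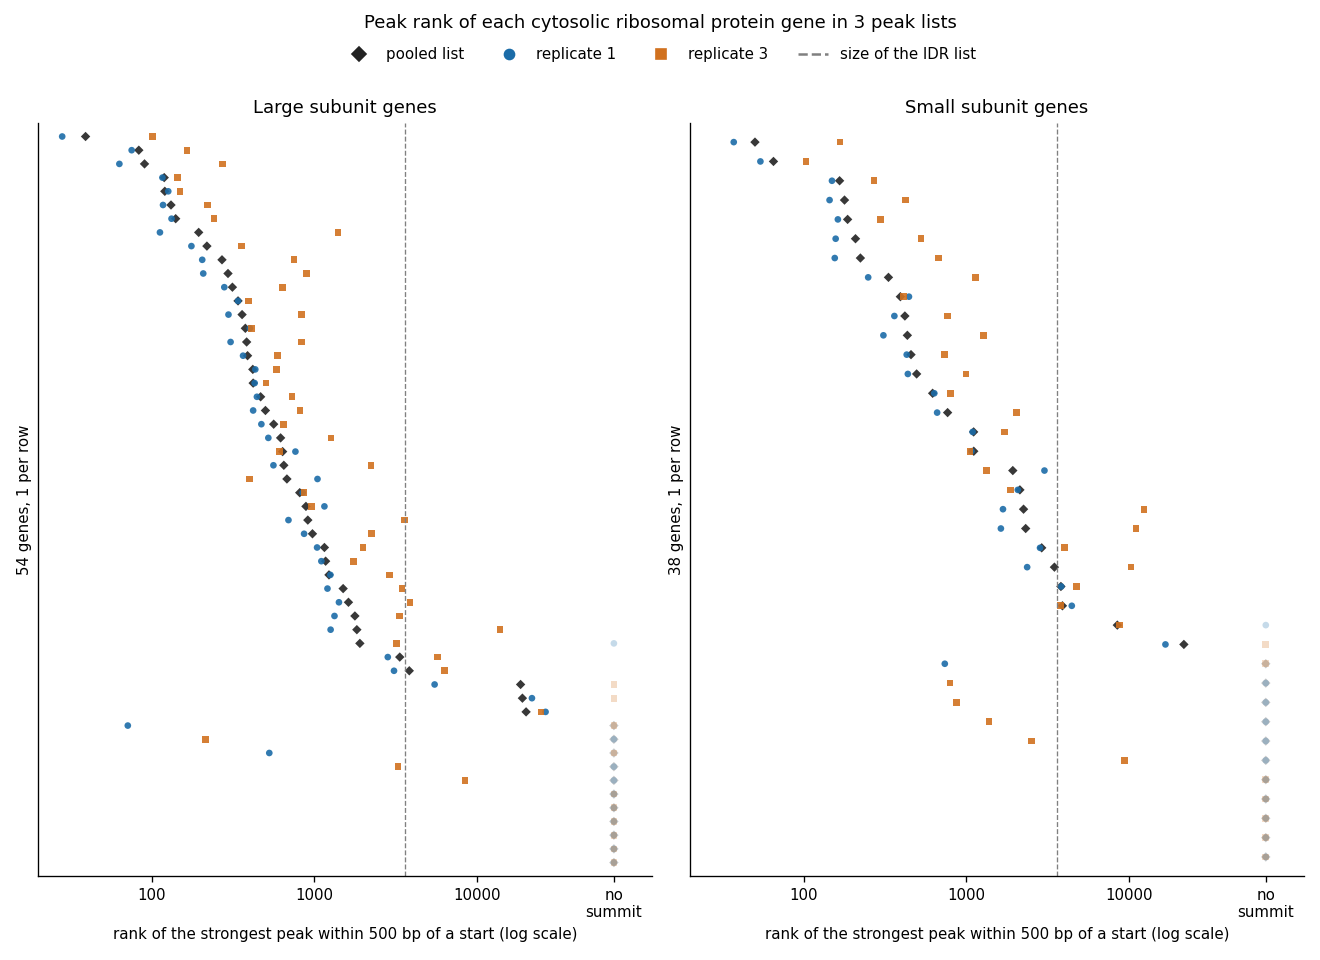
Rank of the strongest peak within 500 bp of a start for each of the 92 ribosomal protein genes in the pooled list (diamonds), replicate 1 (circles) and replicate 3 (squares), on a log axis, with large subunit genes on the left and small subunit genes on the right. Each row is 1 gene, ordered by its rank in the pooled list. The dashed line is the 3607th rank, faint symbols at the right edge are genes without a summit in that list, and most genes with a pooled rank left of the line rank higher in replicate 1 than in replicate 3.

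Replicates were close at bound genes in summit position from the nearest start and less so in rank. Of the 62 bound genes, 61 had a summit in the list of replicate 1 and 62 in that of replicate 3; RpL29 was the exception. Among the 3607 strongest peaks of each replicate, 61 and 55 of them were found. Of the 61 genes in both lists, 54 ranked higher in replicate 1, with a median rank of 433 in replicate 1 and of 825 over 62 genes in replicate 3. The same counts were not made over all bound genes, so whether this is particular to ribosomal protein genes was not tested. Summit positions from the start differed between the replicates by a median of 30 bp, and for 46 of the 61 genes by at most 50 bp. Each position counts from the start nearest to that summit, and only 27 of the 62 bound genes had 1 annotated start. At the other genes the distance between the summits themselves can differ from these values. The largest difference in position was that of RpL9, at 402 bp, a gene that ranked 1260 in replicate 1 and 13901 in replicate 3. RpL23A, at rank 194 of the final list, was also unequal, at rank 112 in replicate 1 and 1398 in replicate 3.

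Summits of ribosomal protein genes were close to the transcript start. The median position was −26 bp, which is upstream of the start (quartiles −54.5 and 3, SD 57.5, n = 62 genes), against −106 bp over all 2526 bound genes and −183 bp over the 21 mitochondrial ribosomal protein genes. Within 100 bp of the start lay 57 of the 62 summits (91.9%, 82.2 to 97.3), against 1046 of 2526 (41.4%, 39.5 to 43.4). Large subunit summits had a median of −37 bp and small subunit summits of −10 bp, with an SD over genes of 59.9 and 49.6 bp, and this difference was not tested. The farthest upstream was that of RpL23, at −263 bp, and this gene had a second, weaker IDR summit 58 bp from its start at rank 1527. The farthest downstream was that of RpS3, at 109 bp. A summit counts from the nearest of the annotated starts, and bound ribosomal protein genes had a median of 2 starts against 1 for other bound genes. Over genes with 1 annotated start the median was −45 bp for 27 ribosomal protein genes and −125 bp for all 1310 bound genes, and 23 of the 27 (85.2%) against 496 of the 1310 (37.9%) lay within 100 bp.

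**Figure D2:**
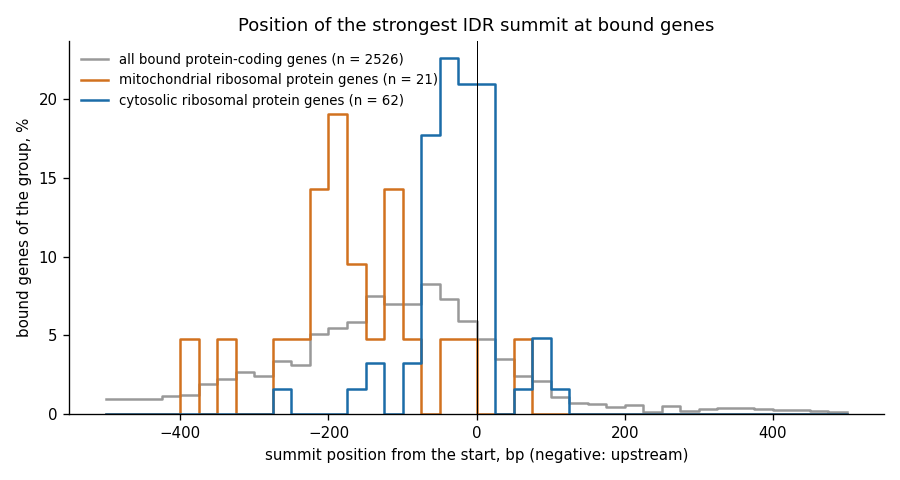
Share of bound genes (y axis, %) by the position of their strongest IDR summit from the nearest start (x axis, bp, bins of 25 bp, negative upstream) for cytosolic ribosomal protein genes (n = 62), mitochondrial ribosomal protein genes (n = 21) and all bound protein-coding genes (n = 2526). The cytosolic genes pile up around the start with a median of −26 bp, and the other groups lie farther upstream with medians of −183 and −106 bp.

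Many of these summits were shared with a neighbouring gene. Of the 62 bound genes, 26 (41.9%) had their summit also within 500 bp of a start of another protein-coding gene, against 1273 of the 2526 bound genes (50.4%), a share whose interval of 29.5 to 55.2 includes that of all bound genes. Of the 21 bound mitochondrial ribosomal protein genes 20 (95.2%, 76.2 to 99.9) shared their summit, an interval that does not overlap that of the cytosolic genes. All partners of the 26 were on the opposite strand. In 25 of the 26 the summit was nearer to the ribosomal protein gene. Neither count was made over the 1273 bound genes with a shared summit. Whether these traits are particular to ribosomal protein genes was therefore not tested. RpL13 shared its summit, 25 bp upstream, with Dref, the gene of the DRE-binding factor, for which it lay 59 bp upstream. The peak of RpL28 was shared with eIF1, a translation initiation factor, at −53 and −328 bp, and that of RpL14 with Nelf-E, a subunit of the factor that holds paused RNA polymerase, at −57 and −70 bp. The peak of RpS18 was shared with plu, at 5 and −300 bp. The exception was RpLP0-like, at −56 bp, with 14-3-3zeta at −31 bp. The median signal was 294.8 over shared and 216.6 over the 36 unshared summits, a difference that was not tested. Of the 62 genes, 53 had 1 IDR summit within the window and 9 had more.

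Within paralogue families, copies often differed in whether they were bound. By symbols that differ in a final letter or in the ending -like, 12 families were found, and RpL37-1 with RpL37-2 was added after the symbols were seen. Exactly 1 copy was bound in 9 of the 12 families and in 10 of the 13, both copies in 2, and none in 1. In all, 14 of the 27 genes in families were bound and 48 of the 65 others. With a share near 14 of 27, many families have 1 bound copy whatever the pairing, and paralogues outside the ribosome were not counted for comparison.

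In 5 of these 10 families the unbound copy had no summit in any list. RpS28b had a signal of 629.8, and neither RpS28a nor RpS28-like had a summit within 500 bp in any list. The IDR summit nearest to RpS28a lay 530 bp away, the closest of all unbound members. RpL22 had 377.2 (rank 175 in replicate 1 and 355 in replicate 3), and RpL22-like, a copy enriched in the germline, had no summit in any list. RpS19a had 281.1 (ranks 444 and 410) and RpS19b, another germline copy, none. RpS15Aa had 370.9 (ranks 155 and 672) and RpS15Ab none, and RpL10Ab had 103.8 (ranks 1331 and 3332) and RpL10Aa none.

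In the other families the unbound copy had a weak peak or a peak in 1 replicate. RpS5a had 412.9 (ranks 144 and 421), while its ovary-enriched paralogue RpS5b ranked 3850 in replicate 1, 4784 in replicate 3 and 3830 in the pool, just past the end of the IDR list. RpS10b had 408.6 (ranks 162 and 296), and RpS10a was at rank 16867 of replicate 1 and absent from the list of replicate 3. RpL24 had 294.0 (ranks 296 and 837), and RpL24-like, whose yeast relative Rlp24 is a ribosome assembly factor, was at rank 5507 of replicate 1 and absent from replicate 3. RpL37-1 had 168.9 (ranks 693 and 3580), and RpL37-2 ranked 26561 and 24864. RpS14b had 269.7 (ranks 309 and 1282). The neighbouring copy RpS14a was absent from the list of replicate 1 and the pool and had rank 1383 in replicate 3, close to that of RpS14b.

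Both copies were bound in the families of RpL34 and RpLP0. RpL34a had a signal of 273.8 (ranks 429 and 503) and RpL34b of 555.7. RpLP0 had 337.2 (ranks 204 and 751) and RpLP0-like, related to the yeast assembly factor Mrt4, had 211.2 (ranks 560 and 2232). Neither RpL7 nor RpL7-like, related to the yeast assembly factor Rlp7, was bound, although RpL7 ranked 214 in replicate 3. Near-identical copies can lose reads that align to several places, and the sources used here do not say how such reads were handled. Values of copies with near-identical promoters are therefore uncertain.

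**Figure D3:**
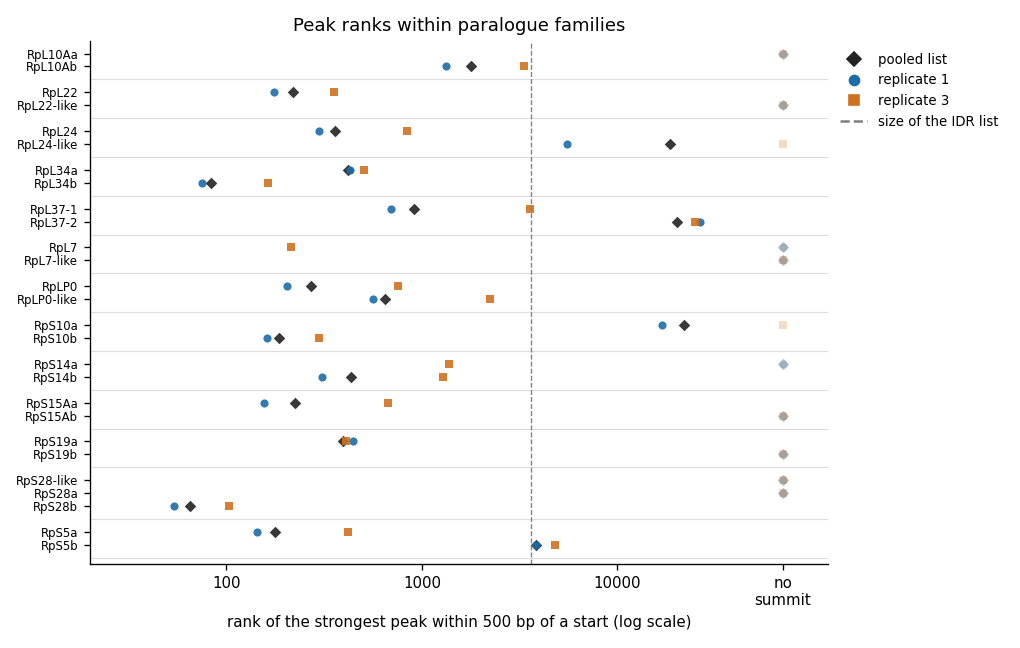
Rank of the strongest peak within 500 bp of a start (log axis) for each copy of the 13 paralogue families, in the pooled list (diamonds), replicate 1 (circles) and replicate 3 (squares), with faint symbols at the right edge for lists without a summit. In 10 families exactly 1 copy lies left of the dashed line, the size of the IDR list, in the pooled list.

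The 30 unbound genes, 15 of each subunit, were of several kinds. In a paralogue family were 13 of them, and 17 were not. A summit within 500 bp in another list was found for 19, and none in any list for 11. Of the 17 unbound genes without a paralogue here, 13 had a summit in some list, and RpL21, RpL36, RpL36A and RpS27A had none. RpS27A and RpL40 encode ribosomal proteins made as fusions with ubiquitin, and RpL40 had only weak summits, at rank 21895 of replicate 1 and 19126 of the pool. RpL5, a protein that binds 5S ribosomal RNA, had a pooled summit at its start and ranked 3096 in replicate 1 and 6326 in replicate 3. RpS15 was absent from replicate 1 and ranked 8759 in replicate 3.

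Some unbound genes had a strong peak in 1 replicate only, with no summit in the pooled list. They count as unbound in the main comparisons of bound and unbound genes, and why the pooled list lacks them was not tested. In replicate 1 these were RpL13A, at rank 71, RpL27, at rank 528, and RpS26, at rank 738, and none of them had a summit in the list of replicate 3. In replicate 3 they included RpL7 (rank 214), RpS16 (795), RpS14a (1383), RpS3A (2517) and RpL11 (3284), and none of these had a summit in the list of replicate 1. That is 3 of the 65 genes bound in replicate 1 (4.62%, 0.962 to 12.9), against 153 of 2592 over all genes (5.90%), and 6 of the 61 bound in replicate 3 (9.84%, 3.70 to 20.2), against 446 of 2567 (17.4%). The shares of all genes lie within the intervals of the ribosomal protein genes. RpL6 and RpS24 had summits in replicate 3 alone, at ranks 8482 and 9402. Counted in either replicate, 72 of the 92 genes were bound (78.3%), against 3385 of all genes (24.3%), a count added after the lists were seen.

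The polypyrimidine initiator was common at ribosomal protein promoters and rare elsewhere. It was searched on the coding strand as CTTT with a C or a T on each side, which makes 4 words of 6 bases, with the first base of CTTT within 10 bases of the start. It was found in 42 of the 62 bound genes (67.7%, 54.7 to 79.1), in 12 of the 30 unbound ones (40.0%, 22.7 to 59.4), in 59 of the 2464 other bound genes (2.39%) and in 388 of all 13945 genes (2.78%). The C lay at a median of 4 bp after the start. By subunit it was found in 37 of 54 large subunit genes (68.5%, 54.4 to 80.5) and in 17 of 38 small subunit genes (44.7%, 28.6 to 61.7). For bound genes the start nearest to the summit was used and for unbound genes the 5′ end of the gene. With the 5′ end for every gene the share of bound genes was 54.8% (41.7 to 67.5), and the intervals of bound and unbound genes overlap under both choices. Most other bound genes lacked the word. The median signal of bound ribosomal protein genes was 225.2 over the 42 with the initiator and 279.1 over the 20 without it, a difference that was not tested. In the 10 families with 1 bound copy, the bound copy held the initiator in 7 and an unbound copy in 3.

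The DRE, searched as TATCGATA, which reads the same on both strands, in the 250 bases before to 50 after the start, was found about equally often in bound and unbound ribosomal protein genes. It stood in 18 of 62 bound genes (29%, 18.2 to 41.9) and 10 of 30 unbound ones (33.3%, 17.3 to 52.8), against 11.5% of other bound genes and 9.22% of all genes. Where a bound ribosomal protein gene held a DRE, the summit was a median of 30 bp from it, and within 100 bp in 18 of 18 genes. For the 283 other bound genes with the word the median was 92.5 bp, and 151 were within 100 bp. The summit was within 100 bp of the start in 57 of all 62 bound ribosomal protein genes, as given above. The median signal was 267.9 with and 253.5 without the DRE. The M1BP core, GGTCACACT on either strand, stood in 7 of 62 bound (11.3%) and 3 of 30 unbound genes (10%), against 5.97% of all genes.

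At bound ribosomal protein genes, words of other promoter elements were about as rare as at other bound genes or rarer. The nuclear receptor core AGGTCA, on either strand in the same window, stood in 3 of 62 bound genes (4.84%, 1.01 to 13.5) and 5 of 30 unbound genes (16.7%, 5.64 to 34.7), against 4.30% of other bound genes and 5.79% of all genes. The same bases in another order, AGTGCA, stood in 6 of 62 (9.68%) and 1 of 30 (3.33%), against 16.3% of all genes. The E-box CAGCTG was found in 6 of 62 bound genes (9.68%, 3.63 to 19.9), against 25.2% of other bound genes (23.5 to 26.9), and GAGAG in 14 of 62 (22.6%, 12.9 to 35.0), against 37.4% (35.5 to 39.4). In a narrower window of 100 bases before to 50 after the start, GAGAG was left in 7 of the 62 (11.3%), AGTGCA in 2 (3.23%) and AGGTCA in 0, and genes other than ribosomal protein genes were not searched in it. TATAAA 45 to 15 bases before the start on the coding strand stood in 1 of 62 bound and 0 of 30 unbound genes, against 8.88% of all genes. Absence of a word says only that these letters are not in the window, and a match is not evidence of a bound site.

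**Figure D4:**
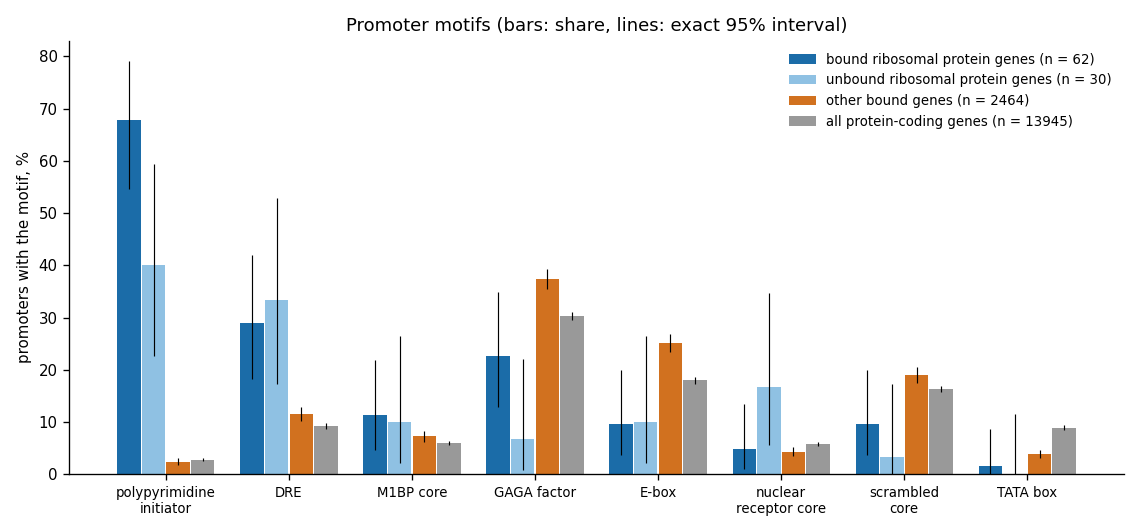
Share of promoters with each motif (y axis, %), for bound ribosomal protein genes (n = 62), unbound ones (n = 30), other bound genes (n = 2464) and all protein-coding genes (n = 13945), with exact 95% intervals as lines. The polypyrimidine initiator reaches 67.7% and 40.0% in ribosomal protein genes and 2.39% in other bound genes.

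A search of all words of 8 bases in the 150 bases before to 50 after the start, run after the data were seen, gave 34 words held by at least 8 bound ribosomal protein genes. The word with the largest share relative to all genes was CCGGAAAC, read on the opposite strand. It stood in 13 of the 62 bound genes (21.0%), 2 of the 30 unbound genes (6.67%), 10 of the 2464 other bound genes (0.406%) and 69 of all genes (0.495%). In all 13 it was on the strand opposite to the gene, so the transcript reads GTTTCCGG, and it lay 16 to 36 bases after the start, with a median of 20. An initiator was also present in 11 of the 13, with the word at most 23 bases after the start, and the 2 without were RpL17 and RpS10b, with the word at 36. It can be seen after the initiator of RpL32 above. A second word, GCAGCCAA, stood in 8 of the 62 bound genes (12.9%), 0 of the 30 unbound genes and 1.08% of all genes, and it can be seen upstream of the starts of RpS28b, RpL34b and RpS19a above. Of the 8 matches, 3 lay after the start, in RpS21 (14 bases), RpS6 (21) and RpS27 (23), the last on the opposite strand. The first word was picked for having the largest share relative to all genes. The second was picked from the same 34 words, of which others stood in more bound genes. CGGAAACG, for example, which overlaps the first word, stood in 15 of the 62 (24.2%), against 0.674% of all genes. Many of the 34 words overlap each other, so they do not count separate elements. Both words come from a search for words frequent in bound genes, so their shares there are a description.

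**Figure D5:**
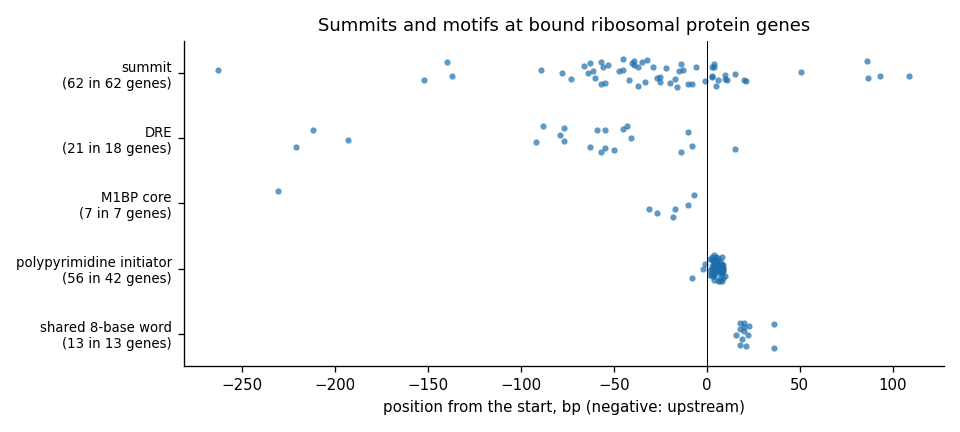
Positions of IDR summits, DRE, M1BP core, polypyrimidine initiator and the shared 8-base word with the largest share relative to all genes, by distance from the transcript start (x axis, bp, negative upstream) at the 62 bound ribosomal protein genes, 1 point per match, spread vertically for visibility. Summits and DRE lie mostly upstream of the start, the initiator at the start and the shared word 16 to 36 bases after it.

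Genes around the ribosomal protein genes and their place on the chromosomes were also compared. A start on the opposite strand within 1000 bp upstream was present for 40 of 62 bound genes (64.5%, 51.3 to 76.3), 15 of 30 unbound genes (50%, 31.3 to 68.7), 52.8% of other bound genes and 34.8% of all genes. Ribosomal protein genes were short, with a median length of 1358.5 bp when bound and 1139 bp when unbound, against 3795 bp for other bound genes. On arm 3L all 14 ribosomal protein genes were bound, and on X 12 of 14, whereas on 2L 10 of 19, on 2R 13 of 21 and on 3R 13 of 23 were. The exact interval of 3L was 76.8 to 100, against 57.2 to 98.2 on X, 38.4 to 81.9 on 2R, 34.5 to 76.8 on 3R and 28.9 to 75.6 on 2L, and the background of all genes was 20.3% on 3L, 14.7% on X, 17.4% on 2R, 20% on 3R and 17.4% on 2L. RpS3A, the only member on chromosome 4, was not bound.

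Other genes of the ribosome and of translation were bound less uniformly. The ribosome components sta, which encodes the small subunit protein known as RpSA in mammals, and Rack1, a scaffold on the small subunit, were both bound, with signals of 182.4 (rank 820) and 235.6 (rank 552) and summits 1 and 6 bp upstream of the start, at −1 and −6 bp. Of 7 elongation factor genes 4 were bound (57.1%, 18.4 to 90.1), eEF1gamma (441.4), eEF1alpha1 (251.9), eEF5 (210.3) and eEF2 (160.2). Of 20 genes of ribosome assembly and ribosomal RNA synthesis 4 were bound (20%, 5.73 to 43.7), close to the background of all genes. These were eIF6, an assembly factor of the large subunit, at rank 9 with a signal of 1272, RIOK1 (119.7), Nop60B (117.5) and Fib (68.4). Over the whole list 10 of 29 were bound (34.5%, 17.9 to 54.3), an interval that includes the background of 18.1%.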

How the data were processed

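The authors deposited narrowPeak lists on dm6 for Hr96-eGFP ChIP-seq. Per the deposited text lists, a replicate's list was made from its alignments and 1 control file, the pooled list from both alignments, and the IDR list from those 3 lists. The signal of a peak and the −log10 of its q-value are the authors' deposited values, and the summit is the deposited offset from the peak start. The sources used here do not give the aligner, the peak caller or the IDR threshold. In the labels 1 field gives the antibody as Hr96 and another as anti-GFP, and anti-GFP is followed here. Control libraries and lists on dm3 were not analysed here.

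Peaks were ranked by signal within a list. A gene took the strongest peak with its summit within 500 bp of a transcript start (Ensembl release 115), and the position from its nearest start. The background was the 13945 protein-coding genes of the 6 main arms. Shares have Clopper-Pearson intervals at 95%, for counting error only. No enrichment test was run, since genes of 1 list are no replicates. The members and lists were chosen with earlier results of these data known. Named are the 10 strongest members, all unbound members and family members, those at the edges of the window, and up to 4 genes of each other class by signal; further members were named for their known roles after their values were seen. Some members that this rule would name are counted but not reported here by name. Sequence is from the RefSeq copy of dm6. Peak assignment and word search were tested on simulated data. Calculations used pandas 2.3.3, numpy 2.4.6 and SciPy 1.17.1 under Python 3.11.15, and matplotlib 3.10.9 drew the figures. Alternatives varied the window, peak set, start choice and word windows, and each replicate was left out by taking the 3607 strongest peaks of the remaining one.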

Additional observations from a re-analysis of the deposited data

How the results depend on the processing

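Of 120 alternative values, 111 moved by less than the tolerance set for them and 9 moved by more. The tolerance was wide, at a 1.5-fold change for counts and 1 SD over genes for medians. For shares it was the 95% interval of the main value. Values within the tolerance may therefore still differ. For example, the share of unbound genes with GAGAG fell from 6.67% to 3.33% in the narrower promoter window and counted as within tolerance. Counts and shares have no direction, so reversal was not tested. The count of bound members was 62 with a window of 250 bp and 63 with 1000 bp, and 53 with the stronger 1803 IDR peaks, where 11.3% of all genes were bound. Using 1 replicate alone it ranged from 61 to 65, with 38 to 41 large and 23 to 24 small subunit genes, 9 of the 12 families with 1 bound copy, 26 to 28 shared summits, 11 other translation genes and a median summit position of −25 to −20 bp. Of those 12 families, 8 had 1 bound copy at 1000 bp and 10 when a summit was given to its nearest gene only. Without members ending in -like, 61 members were bound, 38 of the large and 23 of the small subunit by symbol. Shared summits depended on the rule, with 15 at 250 bp, 41 at 1000 bp and 0 when a summit was given to its nearest gene only, as these rules count fewer or more neighbours. With initiator words allowed within 50 bases of the start, the share was 87.1% in bound and 60% in unbound genes, as the window is wider. With 1 replicate alone it ranged from 66.2 to 70.5% and from 38.7 to 40.7%. In the narrower promoter window AGTGCA was left in 0 of the unbound genes. No bound gene had AGGTCA within the 100 bases before to 50 after the start, and 4 unbound genes did. No paired analysis was possible because there is 1 group of samples. Read depth is unknown, so a gene without a peak may have had too few reads for one.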
